A study of Rattus norvegicus with 52 samples.

Results

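The comparison set 4 basal libraries of ACI rats against 2 basal libraries of BN rats, with treatment as a term in the fit. The members are all basal libraries of the estradiol (E2) experiment, 6 of 52 libraries in the series, and they were chosen from the strain, treatment and cell type of the labels, not from measured values. RNA was sequenced from the sorted basal fraction of the mammary gland of female rats. ACI is an inbred strain whose mammary gland forms tumors under E2, and BN is an inbred strain that resists them. There were 2 ACI Control, 2 ACI E2, 1 BN Control and 1 BN E2 library. Per the study's methods, the rats were 9 weeks old when silastic implants were placed, empty for Control or filled with E2, which released for 3 weeks. The labels of these libraries give no age. The labels of these 6 libraries name no engineered allele, whereas other libraries of the series come from rats that lack *Cdkn1b*. Each ACI title holds 1 animal number and each BN title holds a pair, and whether the BN libraries were pooled from several rats is not given in the sources used here. The same numbers stand on 6 luminal libraries, so each basal library has a luminal partner. With 1 BN library per treatment, the spread within BN could be seen only across treatments.

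Basal cells are the outer layer of the mammary epithelium. Most are myoepithelial: they hold keratins 5 and 14, the transcription factor p63 (*Tp63*) and smooth muscle proteins, and contract in response to oxytocin to eject milk. The layer rests on the basement membrane and also contains cells with stem-like activity.

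The 6 libraries held 20440276 to 23331773 counts on genes, so depth differed little between them. The library labelled BN Control stood apart in its reads, with 53.2% that did not align to a single place, against 36.4% to 43.5% in the other 5, and 4.25% that did not align, against 0.840% to 1.31%. ACI E2 replicate 1 had 7126 genes with at least 10 counts, against 9530 to 10971 in the other 5. The strains did not form separate groups: Spearman's rho over genes was 0.66 to 0.929 in the 8 pairs of libraries from different strains (median 0.818) and 0.699 to 0.898 in the 7 pairs within a strain (median 0.755). The closest pair of all was BN Control with ACI Control replicate 2. The variability between libraries was high, with a biological coefficient of variation of 1.29.

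Markers of the labelled cell type differed between libraries more than between strains. Levels are given as TMM-scaled CPM, which are read counts divided by the size of the library. *Krt14*, the keratin of basal cells, was at 2492, 734, 54.8 and 4365 CPM in ACI Control 1, ACI Control 2, ACI E2 1 and ACI E2 2, and at 365 and 2929 CPM in BN Control and BN E2. *Tp63* was at 163, 29.4, 0 and 131 CPM in the ACI libraries and at 16.2 and 46.8 CPM in BN. The oxytocin receptor gene *Oxtr* was at 102, 20.7, 0 and 77.6 CPM in ACI and at 10.5 and 90.9 CPM in BN. The library labelled ACI E2 replicate 1 therefore lacked *Tp63* and *Oxtr* and had the lowest *Krt5* (121 CPM) and *Krt14*, while *Myh11*, a smooth muscle myosin, was present in all 6 at 1470 to 4081 CPM.

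Markers of other cells were unevenly spread. The pericyte receptor *Pdgfrb* was at 1053 CPM in ACI E2 1, 643 in ACI Control 2 and 502 in BN Control, against 136 in ACI Control 1, 264 in ACI E2 2 and 85.6 in BN E2, and *Rgs5*, another pericyte marker, was highest in the same 3 libraries, at 393 to 775 CPM, and lowest in BN E2, at 0.0469 CPM. *Cspg4*, also a pericyte marker, followed this grouping only in part. It was at only 3.81 CPM in ACI E2 1, at 37.9 to 64.8 CPM in the Control libraries and ACI E2 2, and at 0 in BN E2. BN E2 instead held the fibroblast receptor *Pdgfra* at 65.4 CPM, where the other 5 libraries had at most 0.307 CPM. BN Control was the library with the most *Lyz2* (72.0 CPM), *Ptprc* (7.20 CPM) and *Cd3e* (3.10 CPM), genes of myeloid and lymphoid cells that were at most 1.15 CPM elsewhere. Other markers of these cells did not single it out. The myeloid gene *Csf1r* was at 15.04 CPM there and at 14.93 CPM in ACI E2 1. *Cd68*, also myeloid, was at 6.835 CPM there and at 9.298 CPM in ACI Control 2. The lymphoid gene *Ms4a1* was at 0 there. The red cell gene *Hba1* and the muscle gene *Myh4* were at 0 in all 6. In bulk libraries, fewer cells of a type and less RNA per cell cannot be told apart. ACI E2 replicate 1, which lacked *Tp63* and *Oxtr*, and BN Control, which had low keratins and some markers of blood cells, are called the doubted libraries below. Several results are also given without them. BN Control nevertheless had the most *Acta2* of the 6 (293 CPM), and its *Cnn1* (747 CPM) lay within the ACI range (85.1 to 1501 CPM).

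**Figure D1:**
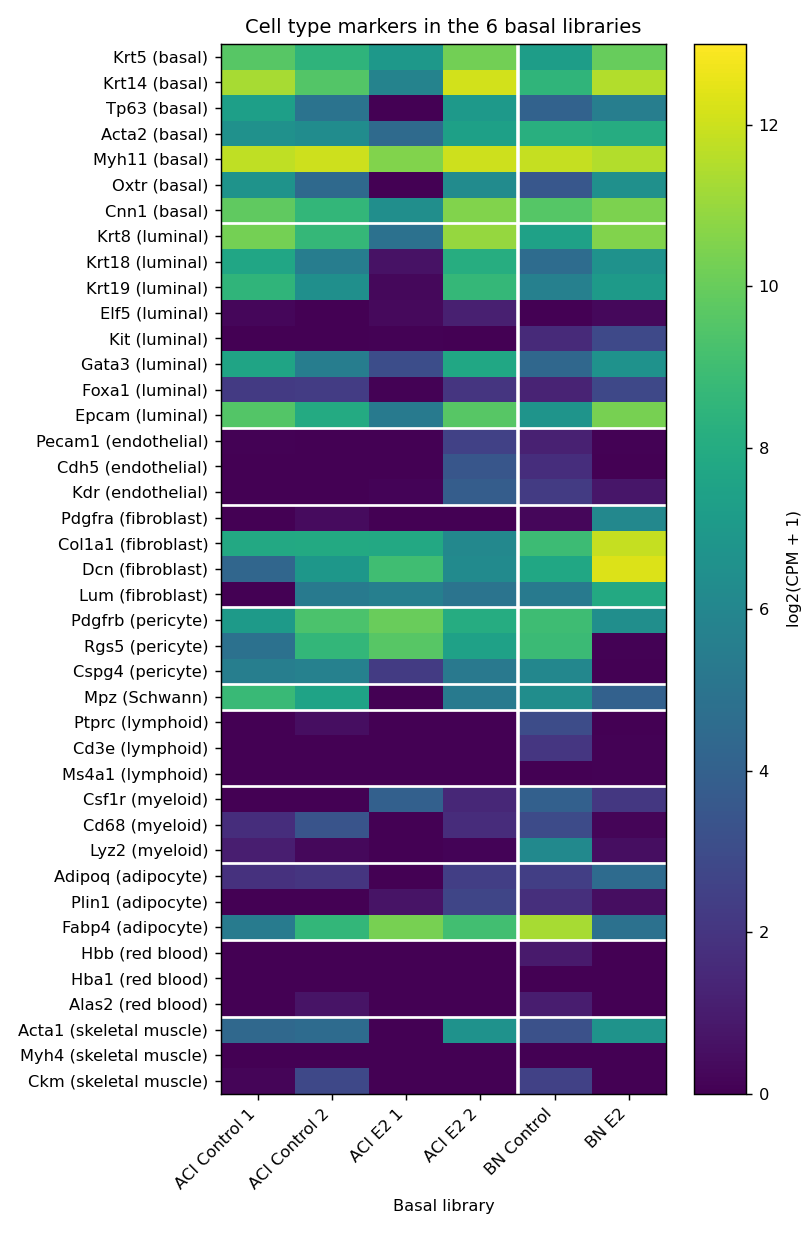
Level of each marker shown, as log2(CPM + 1), in the 6 basal libraries (columns); the label in parentheses gives the cell type that the gene marks and the thick vertical line separates ACI from BN. *Tp63* and *Oxtr* are at 0 in ACI E2 1, the pericyte genes are lowest in BN E2, and *Pdgfra* is high in BN E2 alone.

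No gene passed the adjusted threshold between the strains. In the quasi-likelihood fit of edgeR, after Benjamini-Hochberg adjustment, 0 of 11288 genes (0%) had a p under 0.05, and the lowest adjusted p was 1. At an unadjusted p under 0.05 there were 89 genes, 73 higher in BN (0.647% of those tested) and 16 higher in ACI (0.142%). This split leaned on the scaling: with library size alone it was 51 and 42. It also turned on single libraries, at 64 higher in BN and 337 higher in ACI without BN Control and at 81 and 1 without BN E2. Without both ACI E2 replicate 1 and BN Control it was 154 and 717. DESeq2's Wald test called 8 genes (0.0709%) at an adjusted p under 0.05. Of these 8, 7 were higher in BN, namely *Dmtn*, *Pim1*, *Il1rl1*, *Cilp*, *Cpz*, *RT1-A1* and *Cyp2s1*. *Dennd2d* was the 1 higher in ACI, although it was at 0 in 2 of the 4 ACI libraries, as in both BN libraries. *Cilp* and *Cyp2s1* ranged from 0 to 11.7 and from 0 to 24.4 CPM within ACI. In a plainer reading, all 4 ACI libraries lay below both BN libraries for 614 genes (5.44%) and above both for 350 genes (3.10%). Groups of 4 and 2 libraries also lie apart for some genes where strain has no effect. How many would do so was not estimated, so lying apart is not by itself a strain difference. The 89 genes at an unadjusted p under 0.05 are fewer than that threshold flags on average where no gene differs. What follows describes the genes that stood apart most clearly; in edgeR each had an adjusted p of 1.

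*Pim1*, a serine/threonine kinase induced by cytokine signalling, had the smallest p of all genes. It was at 67.7, 88.4, 81.5 and 124 CPM in the ACI libraries, and at 432 and 569 CPM in BN Control and BN E2. The ACI libraries lay close together and well below both BN libraries. The log2 fold change of ACI over BN was -2.47 ± 0.35 (SE; edgeR, unadjusted p = 0.000453), and it was -2.46 in Control and -2.46 in E2 libraries. It kept its size without BN Control (-2.50), without ACI E2 replicate 1 (-2.35) and without both (-2.22). Luminal cells of the same rats gave -3.87 ± 0.66, with 35.7 to 183 CPM in ACI and 868 and 1526 CPM in BN.

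*RT1-A1*, a classical class I gene of the rat major histocompatibility complex (MHC, called RT1), was at 209, 120.2, 159 and 208 CPM in ACI and at 621 and 1505 CPM in BN. Its log2 fold change was -2.51 ± 0.44 (edgeR, unadjusted p = 0.00140), with -1.91 in Control and -3.04 in E2 libraries, and -2.89 without both doubted libraries.

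*Hmox1*, the heme oxygenase that is induced by oxidative stress, was at 334 to 692 CPM in ACI and at 1132 and 2534 CPM in BN (-1.82 ± 0.44). *Sik1*, a salt-inducible kinase, was at 299.9 to 502 CPM in ACI and at 1996 and 829 CPM in BN (-1.65 ± 0.48). *Ppard*, a nuclear receptor for fatty acids, was at 9.72 to 37.9 CPM in ACI and at 130.1 and 92.5 CPM in BN (-2.50 ± 0.68). *Lamp2*, a lysosomal membrane protein, was at 294 to 492 CPM in ACI and at 1341 and 648 CPM in BN (-1.34 ± 0.35). For these 4 genes the groups did not overlap, and without BN Control the fold was -2.25, -0.89, -2.01 and -1.09, in the same order. The luminal groups did not overlap either for *Hmox1*, *Sik1* and *Ppard*, which were higher in BN there too, but they did for *Lamp2*.

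Some of the genes highest in BN are known from stroma rather than epithelium. *Serpinf1*, which encodes a secreted factor of fibroblasts, was at 4.58 to 67.2 CPM in ACI and at 71.0 and 586 CPM in BN (-3.15 ± 0.78). *Col5a1*, a fibrillar collagen, was at 46.5 to 164 CPM in ACI and at 649 and 364 CPM in BN (-2.12 ± 0.54). *Gpc3*, a glypican, was at 11.9 to 37.4 CPM in ACI and at 79.2 and 101 CPM in BN (-1.93 ± 0.57). *Il1rl1*, the receptor for interleukin 33, was at most 0.0439 CPM in ACI, 1.79 CPM in BN Control and 59.0 CPM in BN E2. It did not always go with *Pdgfra* in luminal libraries. There it was at 50.3 CPM in BN E2, where *Pdgfra* was at 0, and at 22.4 CPM in ACI E2 1, where *Pdgfra* was at 58.7 CPM. *Cpz*, a carboxypeptidase of the extracellular matrix, was at 0 in all 4 ACI libraries, at 2.05 CPM in BN Control and at 62.1 CPM in BN E2. BN E2 was the highest library for all of these but *Col5a1*, and it was also the library with *Pdgfra*. *Dmtn*, an actin-bundling protein, went the other way between the BN libraries, at 272 CPM in BN Control, 10.9 in BN E2 and at most 0.307 in ACI. It was at most 0.585 CPM in every luminal library. Without both doubted libraries the folds of *Serpinf1*, *Col5a1*, *Gpc3* and *Dmtn* were -4.82, -2.999, -1.47 and -7.87, and the last 2 then had an unadjusted p of 0.171 and 0.179 in edgeR.

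Of the genes higher in ACI, *RT1-CE5*, another class I gene, was at 158, 90.2, 121 and 154 CPM in ACI and at 46 and 27.9 CPM in BN (log2 fold change 1.85 ± 0.50; edgeR, unadjusted p = 0.0104), and at 2.43 on the log2 scale without both doubted libraries. *RT1-CE4* was at 85.2, 57.0, 83.9 and 70.6 CPM in ACI and at 39.2 and 18.5 CPM in BN (1.42 ± 0.56). *Jak2*, the tyrosine kinase that transmits prolactin and cytokine signals, was at 120, 79.1, 72.8 and 87.2 CPM in ACI and at 46.1 and 25.5 CPM in BN (1.37 ± 0.47). *Jak2* did not follow strain in luminal cells, at 56.9 to 121 CPM in ACI and 78.1 and 95.3 CPM in BN.

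*Cd200*, a membrane protein that restrains myeloid cells and marks basal mammary cells, was at 290, 210.2, 542 and 573 CPM in ACI and at 155 and 143 CPM in BN (1.28 ± 0.46). *Traf4*, an adaptor of tumor necrosis factor receptors, was at 31.9 to 88.2 CPM in ACI and at 19.7 and 14.8 CPM in BN (1.87 ± 0.69). *Dock1*, an activator of the GTPase Rac, was at 113 to 143 CPM in ACI and at 77.9 and 33.2 CPM in BN (1.27 ± 0.48). The remaining genes named by the same rule were *Plcb1*, *Yeats2*, *Kpna4*, *Tax1bp3*, *Cog4* and *Zfp51*, with log2 fold changes of 1.18, 2.57, 1.55, 1.30, 1.5 and 10.18. *Zfp51* was at 0 in both BN libraries but at only 0.132 CPM in ACI Control 2. Several folds rested on BN E2: without it those of *Cd200*, *Dock1*, *Cog4* and *RT1-CE4* were 0.69, 0.69, 0.87 and 0.86. For 11 of these 12 genes BN E2 was the lower of the BN libraries, and for *Zfp51* both were at 0. The gaps were narrow for *Tax1bp3* and *Plcb1*, whose lowest ACI library was at 80.9 and 74.4 CPM against a highest BN library of 77.4 and 69.1 CPM.

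**Figure D2:**
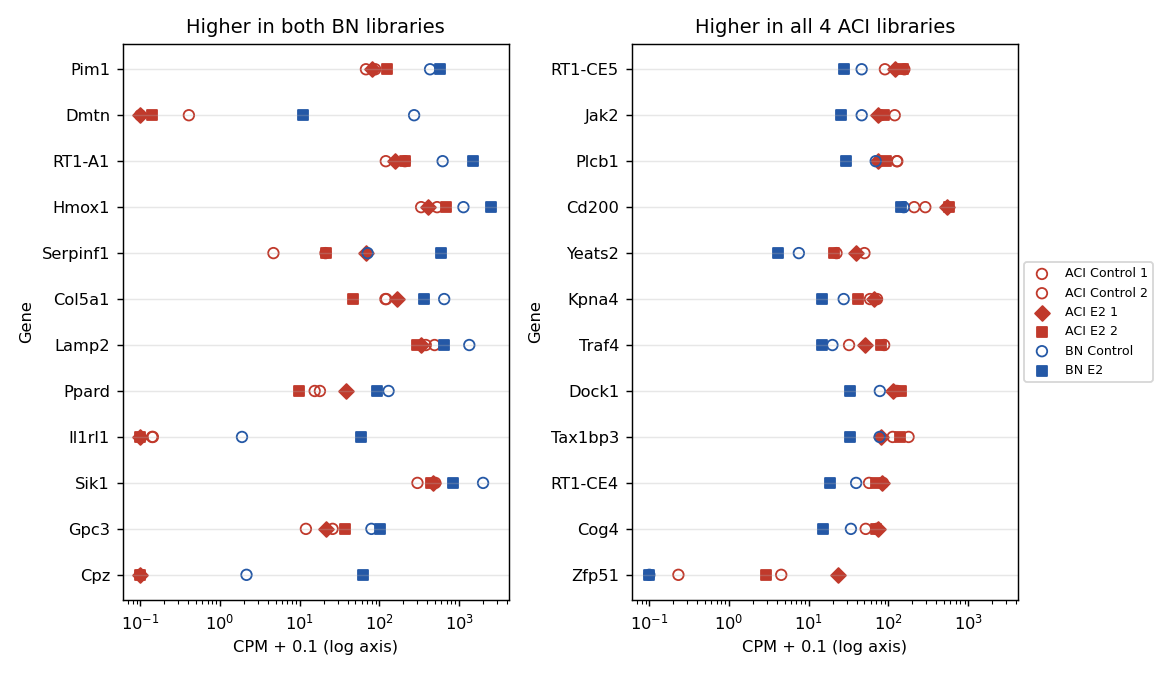
Level in each basal library, as CPM + 0.1 on a log axis, of the 12 genes per direction with the smallest p whose strains did not overlap; red is ACI, blue is BN, open circles are Control and filled marks are E2 (the diamond is ACI E2 replicate 1). The ACI and BN points of *Pim1* and *RT1-A1* are far apart, whereas those of *Plcb1* and *Tax1bp3* nearly touch.

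RT1 genes were on both sides. The files held 48 genes whose symbol starts with RT1, of which 25 reached 5 CPM in a library and all 25 were tested. Of these, 7 lay higher in all ACI than in both BN basal libraries (*RT1-A3*, *RT1-CE3*, *RT1-CE4*, *RT1-CE5*, *RT1-CE6*, *RT1-O1* and *RT1-S2*), against 3.10% of all genes, and 4 lay higher in BN (*RT1-A1*, *RT1-Bb*, *RT1-CE16* and *RT1-Da*), against 5.44%. Class I molecules present peptides from inside the cell to T cells and are made by nearly every cell. *RT1-Bb* and *RT1-Da* belong to class II, which is known from antigen-presenting cells. *RT1-Da* was at 0.130 to 6.34 CPM in ACI, 111 CPM in BN Control and 13.1 CPM in BN E2, so it was highest in the library with the most *Ptprc* and *Lyz2*, whose part in the difference was not tested. The cells were also stained for Cd45, the product of *Ptprc*, and for Cd31 to mark blood and endothelial cells. Other genes of antigen presentation that lay higher in BN were *B2m*, the light chain of class I (1412 to 2011 CPM in ACI, 3198 and 2222 CPM in BN), and *Tapbp*, which loads class I molecules (62.8 to 71.5 CPM in ACI, 131 and 146 CPM in BN; -1.06 on the log2 scale, edgeR, unadjusted p = 0.0247).

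The class I genes are near copies of each other, and reads that fit several copies were left out of the counts, so the division of reads among them is uncertain. The reads of both strains were aligned to the rn6 genome, which was built from a BN rat, and the effect of this on ACI counts was not tested. How alike the transcripts of the copies are was not measured, and only promoters are compared here. The reference promoters of the 3 class I genes named above were taken from RefSeq (GRCr8, a later build than that of the counts). They run from 250 bases before to 50 bases after the gene start, and lie on chromosome 20 at chr20:4906959-4907258 (plus strand) for *RT1-A1*, chr20:3509107-3509406 (minus strand) for *RT1-CE4* and chr20:3484041-3484340 (minus strand) for *RT1-CE5*. Capitals mark GGGNNTTCC, a loose form of the kappa B element of class I promoters in which N is any base, and CCAAT, both searched on either strand (GGAANNCCC and ATTGG on the other). The motifs did not overlap.
RT1-A1: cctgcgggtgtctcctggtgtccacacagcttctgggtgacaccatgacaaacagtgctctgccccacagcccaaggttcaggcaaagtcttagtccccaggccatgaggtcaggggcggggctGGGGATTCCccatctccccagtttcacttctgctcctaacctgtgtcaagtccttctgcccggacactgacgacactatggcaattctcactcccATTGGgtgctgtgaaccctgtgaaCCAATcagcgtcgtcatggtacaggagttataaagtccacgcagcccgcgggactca
RT1-CE4: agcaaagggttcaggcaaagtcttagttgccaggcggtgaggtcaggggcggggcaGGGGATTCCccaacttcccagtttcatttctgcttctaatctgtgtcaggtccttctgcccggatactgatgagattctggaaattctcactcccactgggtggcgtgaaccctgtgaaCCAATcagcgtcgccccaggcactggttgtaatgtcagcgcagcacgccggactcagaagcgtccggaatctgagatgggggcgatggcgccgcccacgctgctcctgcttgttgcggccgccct
RT1-CE5: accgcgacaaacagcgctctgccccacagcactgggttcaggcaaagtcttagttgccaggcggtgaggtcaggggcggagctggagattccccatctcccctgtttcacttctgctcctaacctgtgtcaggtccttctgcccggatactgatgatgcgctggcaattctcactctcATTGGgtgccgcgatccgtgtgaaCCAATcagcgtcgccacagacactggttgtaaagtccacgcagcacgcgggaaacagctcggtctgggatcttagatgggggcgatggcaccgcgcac
The aligned parts were 85.2% identical between *RT1-A1* and *RT1-CE4* (over 230 aligned bases), 86.4% between *RT1-A1* and *RT1-CE5* (258) and 85.7% between *RT1-CE4* and *RT1-CE5* (273). GGGNNTTCC was in the windows of *RT1-A1* and *RT1-CE4* and in 1638 of all 27457 promoters of this length (5.97%), and these letters are not in the window of *RT1-CE5*. CCAAT was found 2 times in *RT1-A1*, 1 time in *RT1-CE4* and 2 times in *RT1-CE5*, and 37.7% of all promoters hold it. *RT1-A1* (higher in BN) and *RT1-CE4* (higher in ACI) both hold the 2 motifs.

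The BN basal libraries differed from each other in some class I genes that were low in BN luminal cells. *RT1-CE6* was at 33.3, 18.2, 23.5 and 28.5 CPM in ACI basal, 10.2 CPM in BN Control basal and 0.281 CPM in BN E2 basal, and at 0.475 and 0.367 CPM in the BN luminal libraries. *RT1-CE3* was at 20.1 to 37.3 CPM in ACI basal, 10.8 CPM in BN Control basal, 0.937 CPM in BN E2 basal and 0.666 and 2.15 CPM in BN luminal. *RT1-CE2* was at 45 CPM in BN Control basal, within the ACI range of 43.7 to 86.2 CPM, and at 4.78 CPM in BN E2 basal. In BN luminal cells *RT1-CE2* was at 11.1 and 7.39 CPM. BN Control basal lay between ACI and BN E2 for *RT1-CE3* and *RT1-CE6*, but not for *RT1-CE2*. Among genes at least 4-fold apart without overlap between the strains in luminal cells and seen in basal cells, 35 were higher in ACI, 6 of them RT1 genes. BN E2 basal lay below all ACI basal libraries for 16 of the 35 and BN Control basal for 9, and outside RT1 for 10 and 4 of 29. Of the 21 that were higher in BN, BN E2 basal lay above all ACI basal libraries for 12 and BN Control basal for 8, and outside RT1 for 11 and 7 of 20. This reading was chosen after the values had been seen, and the luminal and basal libraries come from the same rats.

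**Figure D3:**
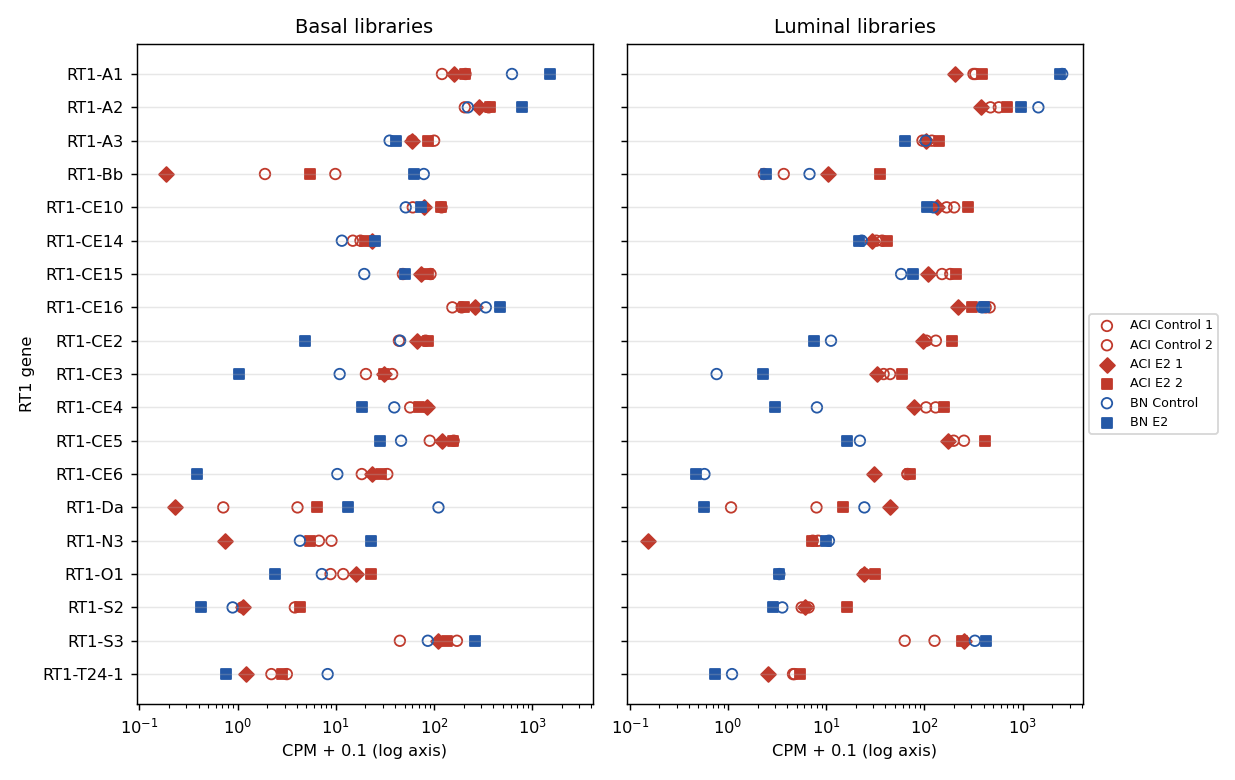
Level of the RT1 genes that did not overlap between strains in basal or luminal cells, as CPM + 0.1 on a log axis, in the 6 basal (left) and 6 luminal (right) libraries, with colors and marks for strain and treatment as in the legend. For *RT1-CE2*, *RT1-CE3* and *RT1-CE6* the BN Control basal library (open blue circle) sits nearer to ACI than the BN E2 basal library does, while in luminal cells both BN libraries sit far below ACI.

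Genes on the chromosome of the RT1 complex were more often among the unadjusted calls. By RefSeq symbol (GRCr8, 98.8% of tested genes matched), 354 tested genes lie on that chromosome and 14 of them (3.95%) had an unadjusted p under 0.05 in edgeR, against 75 of 10801 (0.694%) on other chromosomes. In the order in which they lie they were *RT1-CE16*, *RT1-CE5*, *RT1-CE4*, *RT1-Bb*, *RT1-A1*, *Tapbp*, *Ppard*, *Pi16*, *Mtch1*, *Pim1*, *Zfand3*, *Sik1*, *S100b* and *Hk1*. Of the 328 genes of this chromosome that are not RT1 genes, 9 were among them. Measured by groups that do not overlap, 39 (11%) on this chromosome and 913 (8.45%) on others were apart. The set was chosen after the values had been seen and has no test. One of the 14, *S100b*, is also a Schwann cell marker and was at 232, 96.5, 86.4 and 42 CPM in ACI and 54.8 and 4.50 CPM in BN.

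A further 21 genes had 0 counts in all 4 ACI libraries and at least 20 counts in both BN libraries, and 2 showed the reverse. *Hcn4*, a pacemaker ion channel, was at 10.9 and 13.5 CPM in BN, which is at least 82.4-fold above the limit that 3 counts set in the ACI library with the highest limit (0.132 CPM). The phosphatase gene *Dusp26* was at 5.94 and 6.47 CPM (at least 45-fold) and *P2ry6*, a nucleotide receptor, at 5.15 and 5.76 CPM (at least 39-fold). *Shisa3* was at 3.84 and 16.9 CPM and *Zap70*, a kinase of T cells, at 3.79 and 3.14 CPM. The other 16, *Cpz* among them, had at least 8.36-fold. *Bex1* (2.29 to 3.72 CPM) and *Tom1l1* (1.18 to 5.2 CPM) were present in every ACI library and at 0 in both BN libraries, which sets a fold of at least 14.5 and 7.49. *Bex1* did not follow this pattern in luminal cells, where BN had 9.94 and 26.5 CPM and ACI had 10.2 to 46.9 CPM. *Asic2*, *Pon3* and *Cenpt* lay higher in ACI there, with *Asic2* at 21.96 to 52.59 CPM against 9.936 and 4.508 CPM in BN. In the 8 *Cdkn1b*+/+ basal libraries described below, *RGD1310110* reached 78.77 CPM and *Zfp472* 45.97 CPM, and each was below BN in 2 of 8. *Hcn4*, *Dusp26*, *P2ry6*, *Shisa3* and *Zap70* were below BN in 8 of 8. A gene at 0 in these 4 libraries is therefore not always silent in ACI rats.

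The genes that define the basal layer did not separate the strains. Of 20 genes of basal identity, 19 were tested, 0 lay apart in either direction, and their median log2 fold change was 0.14, beside 0.02 over all genes. That median was -0.74 without BN Control and 1.93 without BN E2. Of 18 tested genes of myoepithelial contraction, 2 lay higher in BN (11.1%, against 5.44% of all genes) and 0 in ACI. *Acta2*, smooth muscle actin, was at 95.0, 78.6, 21.7 and 164 CPM in ACI and at 293 and 265 CPM in BN (-1.64 ± 0.74), and *Srf*, which drives transcription of contractile genes, at 15.1 to 34.5 CPM in ACI and 50.7 and 36 CPM in BN. *Myh11* (-0.02 ± 0.55) and *Mylk* (-0.13 ± 0.35) had folds near 0. Among 17 tested luminal identity genes, *Kit* lay higher in BN (1.89 and 6.23 CPM, at most 0.0433 in ACI) and *Areg*, a ligand of the EGF receptor induced by estrogen, lay higher in ACI (25.3 to 196 CPM, against 16.2 and 20.6 CPM in BN). Each is 5.88% of that list, against 5.44% and 3.10% of all genes.

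Hormone receptors were low in basal cells of both strains. *Esr1*, the estrogen receptor, was at 0.0409, 1.89, 0.173 and 1.10 CPM in ACI and at 5.21 and 5.95 CPM in BN (-2.84 ± 2.28). *Pgr*, the progesterone receptor, was at 0 to 4.52 CPM in ACI and at 0.526 and 21.6 CPM in BN, so its groups overlapped. *Cdkn1b*, which encodes the cell cycle inhibitor p27, was at 34.6, 29.3, 11.2 and 30.2 CPM in ACI and at 51.6 and 12.4 CPM in BN (-0.03 ± 0.82). The lowest ACI value was that of ACI E2 replicate 1, a doubted library, and the other ACI E2 library lay between the ACI Control libraries. Of 14 tested CDK inhibitors and G1 cyclins with their partners, *Rb1* lay higher in ACI (20.5 to 53.2 CPM, against 15.1 and 20.3 CPM) and *Rbl2* and *Cdkn2b* lay higher in BN. These are 7.14% and 14.3% of a short list, against 3.10% and 5.44% of all genes. *Cdt1*, a factor that licenses DNA replication, was the only 1 of 31 tested S phase genes to lie apart, at 12.3 to 22.1 CPM in ACI and 78.8 and 40.6 CPM in BN. That is 3.23% of the list, against 5.44% of all genes. Of 34 tested G2 and M phase genes, *Tacc3* lay apart, higher in ACI (2.94%, against 3.10% of all genes).

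In the signalling lists few members lay apart, and the shares are given beside those of all genes (3.10% higher in ACI, 5.44% higher in BN). In the EGF, FGF and neuregulin list *Areg* of 23 lay higher in ACI (4.35%). In the Wnt list *Tcf4* of 27 lay higher in BN (3.7%), at 51.2 to 132 CPM in ACI and 183 and 177 CPM in BN, and in the Notch list *Mfng* and *Hes6* of 23 did (8.7%). Of 30 tested genes of TGF-beta and BMP signalling, *Tgfbr1* lay higher in ACI (47.6 to 131 CPM, against 37.5 and 47.3 CPM) and *Tgfbr3*, *Acvr1* and *Smad3* lay higher in BN. These are 3.33% and 10% of that list. Among 18 tested integrins and laminins *Itgb8*, which activates latent TGF-beta, lay higher in ACI (21.5 to 72.2 CPM, against 10.0 and 8.67 CPM), 5.56% of that list. None of 17 tested milk protein and lactation genes lay apart, and *Csn2*, beta-casein, ranged from 5.07 to 897 CPM in ACI and was at 12.7 and 360 CPM in BN.

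Stress genes leaned towards BN, by amounts within the spread. Of 23 tested heat shock genes 20 had a negative fold, with a median of -0.42, and 2 lay higher in BN (8.7%, against 5.44% of all genes): *Hsph1* (780 to 1761 CPM in ACI, 2793 and 2103 CPM in BN) and *Hspa8* (1597 to 2536 CPM in ACI, 4881 and 2875 CPM in BN). Their median was -0.06 without BN Control. Of 30 tested immediate early genes 4 lay higher in BN (13.3%, against 5.44% of all genes), among them *Jun* (4622 to 8872 CPM in ACI, 14170 and 9467 CPM in BN) and *Klf4* (115 to 177 CPM in ACI, 212 and 304 CPM in BN), whereas *Fos* (0.07 ± 0.65) and *Egr1* (-0.39 ± 0.66) were not apart. The median of the immediate early list was 0.04 without BN Control. The glutathione and xenobiotic list was divided, with *Hmox1*, *Slc7a11*, *Gpx8* and *Cbr1* higher in BN and *Ephx1*, *Gsr* and *Gpx7* higher in ACI, of 41 tested. These are 9.76% and 7.32%, against 5.44% and 3.10% of all genes.

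Of 27 tested interferon-stimulated genes, 5 lay higher in BN (18.5%, against 5.44% of all genes) and 0 in ACI (against 3.10%). They were *Ifi27l2b* (17.9 to 28.3 CPM in ACI, 50.8 and 40.9 CPM in BN), *Bst2*, *Oasl2*, *Irf1* (836 to 1068 CPM in ACI, 1228 and 1096 CPM in BN) and *Oas1a*. *Irf7* (-0.20 ± 0.70) was not apart. The list's median was -0.35, and it was -0.99 without both doubted libraries. In edgeR 0 of the 27 had an unadjusted p under 0.05. The summed level of the list overlapped between the strains, at 2506 to 4149 CPM in ACI and at 3667 and 3558 CPM in BN. Of 29 tested chemokines and cytokines 4 lay higher in BN (13.8%, against 5.44%): *Csf1*, the growth factor of macrophages (218 to 386 CPM in ACI, 859 and 507 CPM in BN; -1.24 ± 0.40), *Cxcl2*, *Ccl20* and *Cxcl9*.

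All 20 tested fibroblast genes had a negative fold, with a median of -1.91, and 8 lay higher in BN (40%, against 5.44% of all genes): *Serpinf1*, *Col5a1*, *Col1a1*, *Fbln1*, *Dpt*, *Twist2*, *Col6a2* and *Mfap5*. The summed level of the list was 4006 to 9217 CPM in ACI, 9991 CPM in BN Control and 31070 CPM in BN E2. *Col1a1* was at 67.2 to 239 CPM in ACI, 477 CPM in BN Control and 3662 CPM in BN E2. Without BN E2 the median was -1.17 and without BN Control -2.19. Of 29 tested genes of extracellular matrix and its enzymes 4 lay higher in BN (13.8%, against 5.44%), namely *Loxl1*, *Fbln1*, *Thbs2* and *Lox*, and 0 in ACI. Adipocyte genes had 6 of 15 tested higher in BN (40%, against 5.44%), with *Adipoq* at most 4.35 CPM in ACI and at 4.42 and 22.3 CPM in BN, a summed level of 602 to 3137 CPM in ACI and of 3727 and 1051 CPM in BN, and a median that went from -1.55 to 0.00 without BN Control.

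The other cell types did not follow strain. Pericyte genes summed to 1249 to 6720 CPM in ACI, 7241 CPM in BN Control and 152 CPM in BN E2, and 0 of 14 tested lay apart. Schwann cell genes summed to 752 to 4809 CPM in ACI and to 1925 and 978 CPM in BN, with 1 of 14 apart (*Prx*, higher in BN). Endothelial genes (229 to 1366 CPM over all 6 libraries, 0 of 14 apart) and myeloid genes (36.5 to 110 CPM in ACI, 372 and 66.7 CPM in BN, 0 of 12 apart) also overlapped in their sums, as did muscle genes (0 of 8 apart). The median of the myeloid list was -5.07, and 2.83 without BN Control. Of the lymphoid and the red blood cell lists 1 gene each was tested, and they summed to at most 3.08 and 0.658 CPM in ACI and to 38.3 and 2.00 CPM in BN Control. Which part of the strain differences came with these cells was not tested. Ribosomal protein genes (median -0.22, with a negative fold in 64 of 78 tested, 4 apart) and oxidative phosphorylation genes (median -0.14, with a negative fold in 49 of 75 tested, 1 apart), both in use in every cell, leaned to BN by little, and their medians were 0.09 and 0.28 without BN Control. Their members apart, all higher in BN, were 5.13% and 1.33% of those tested, against 5.44% of all genes. The cholesterol and fatty acid list had 2 of 32 apart, *Scd* and *Sc5d*, higher in BN (6.25%, against 5.44%). In the list of MHC genes and antigen presentation 7 of 40 lay higher in ACI (17.5%, against 3.10% of all genes) and 6 in BN (15%, against 5.44%).

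**Figure D4:**
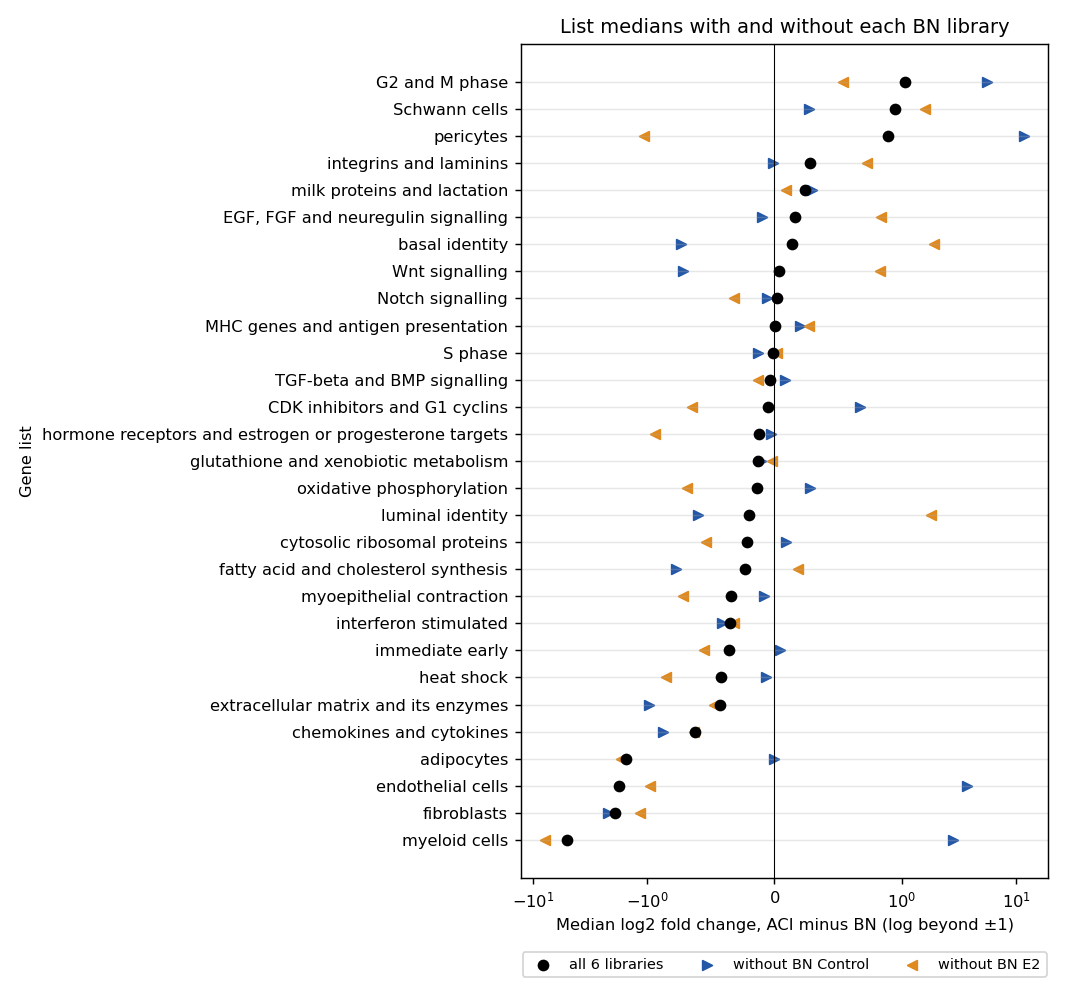
Median log2 fold change of ACI over BN (horizontal axis, linear between -1 and 1 and logarithmic beyond) for each gene list (vertical axis) with all 6 libraries (black), without BN Control (blue) and without BN E2 (orange). The fibroblast, matrix, chemokine and interferon medians stay below 0 in all 3. So do those of heat shock, myoepithelial contraction, hormone receptor, glutathione and adipocyte genes, which come near 0 in at least 1 setting. The basal, luminal, pericyte and myeloid medians change side.

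Whether the strain difference depended on treatment was asked with an interaction term. None of 12265 genes had an adjusted p under 0.05 in edgeR (0%), 384 had an unadjusted p under 0.05 (358 positive, 26 negative), and DESeq2 called 327. The 384 turned on single libraries, at 821 without ACI E2 replicate 1, 188 without ACI Control replicate 1 and 2601 (684 positive, 1917 negative) without ACI E2 replicate 2. The genes with the smallest p were at 0 or near it in BN E2 alone: *Casq2*, a calcium store protein of muscle, was at 56.4 to 154 CPM in ACI, 357 CPM in BN Control and 0 in BN E2, *Rcan2* at 41.5 to 139, 143 and 0 CPM, and *Itga7*, a laminin receptor of muscle cells, at 199.8 to 557, 443.7 and 0.0937 CPM. They were low where the pericyte markers were low, and the part of those cells in the result was not tested. In the other direction *Cilp* and *Capn5* were at 0 in both ACI E2 libraries and present in the other 4, and *Gfpt2* was at 848 CPM in BN E2 and at 76.6 to 120 CPM elsewhere. For *Pim1* the interaction was 0.00 on the log2 scale and for *RT1-A1* it was -1.13 (edgeR, adjusted p of 1.00 for both).

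The strain difference was also set against that of luminal cells, where edgeR called 0 of 11499 genes and 527 had an unadjusted p under 0.05. For the interaction of strain and cell type edgeR called 0 of 12405 genes (0%), 269 had an unadjusted p under 0.05 (49 positive, 220 negative) and DESeq2 called 249. The 269 became 140 without ACI Control luminal replicate 2 and 406 (249 positive, 157 negative) without BN Control basal. Of the 614 genes higher in BN basal cells, 74 (12.1%) were also apart in that direction in luminal cells, against 7.22% of all genes, and 26 were apart in the other direction. Of the 350 higher in ACI basal cells, 49 (14%) were, against 7%, and 13 were opposite. Both cell types share rats, so these are not independent. *RT1-CE4* had a luminal fold of 4.54 ± 0.69 against 1.42 in basal cells, and the difference was -3.11 ± 0.84 (edgeR, unadjusted p = 0.00453, adjusted p of 1). *RT1-CE5* had 3.75 in luminal cells. The genes with the smallest p for this term were *F2r*, the thrombin receptor, *Has2*, a hyaluronan synthase, and *Lrrc49*, all at 0 in both BN luminal libraries and present in all 6 basal ones, and in the other direction *Cnp*, *Bex1* and *Il23a*. *Has2* was at 34.7 to 112 CPM in ACI basal and at 19.6 and 47.5 CPM in BN basal cells.

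**Figure D5:**
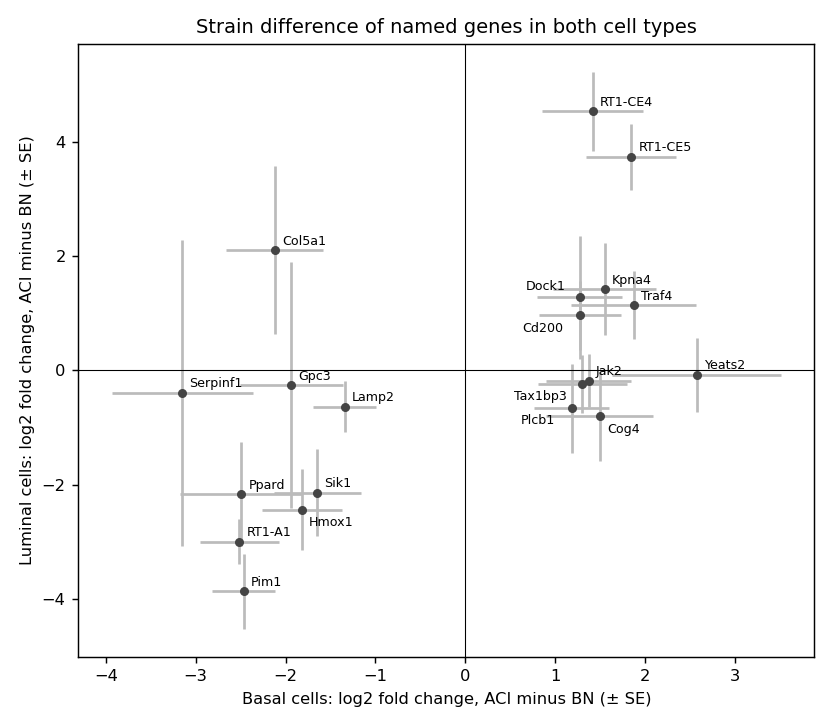
Log2 fold change of ACI over BN with its standard error in basal cells (horizontal) and luminal cells (vertical) for the named genes whose basal standard error was under 1.5 and whose luminal value could be estimated. *Pim1*, *RT1-A1*, *Hmox1*, *Sik1* and *Ppard* are below 0 on both axes and *RT1-CE4* and *RT1-CE5* above 0 on both, whereas *Col5a1*, *Cog4* and *Plcb1* are among those with opposite signs.

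The series also holds 8 basal libraries of *Cdkn1b*+/+ rats of 4, 6 and 9 weeks that the labels call ACI. Per the study's methods the *Cdkn1b* line was made in outbred Sprague-Dawley rats and then crossed to ACI, so these rats may carry Sprague-Dawley genome, at RT1 too, and how much each carried is not given in the sources used here. They also differ in age and experiment, and these cannot be told apart. For *Pim1* they ranged from 20.96 to 97.3 CPM and for *RT1-A1* from 110 to 433 CPM, and all 8 lay below both BN libraries. *Dmtn*, *Sik1*, *Gpc3* and *Col5a1* were below BN in 8 of 8 too, and *RT1-CE5*, *Traf4*, *Yeats2* and *Tax1bp3* were above BN in 8 of 8. *Hmox1* was below BN in only 2 of 8, with 794 to 23200 CPM, *Serpinf1* in 3 of 8, *Cpz* in 2 of 8 and *Il1rl1* in 3 of 8. *Jak2* was above BN in 4 of 8, *Dock1* in 2 of 8 and *Plcb1* in 0 of 8. All 8 libraries lay beyond BN for 193 of the 614 genes higher in BN (31.4%) and for 85 of the 350 higher in ACI (24.3%). The matching share over all tested genes is not given here, so these shares cannot be set against a background.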

How the data were processed

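Raw read counts per gene were taken as deposited. Per the study's methods, the authors sorted cells by flow cytometry with Cd24 and Cd29, with Cd31 and Cd45 to mark endothelial and blood cells, made cDNA with a SMARTer low-input kit, sequenced single reads, aligned them with STAR to rn6 and counted them on refGene genes with HTSeq. The submitters' processing notes give STAR 2.5.1b. The strandedness of counting is not given in the sources used here, so overlapping and antisense genes are uncertain. Rows that name no gene (57.1% to 70.9% of the records of the 6 basal libraries) were left out of library sizes and tests. The 6 libraries were fitted with strain and treatment as terms by edgeR 4.0.16 (R 4.3.3; quasi-likelihood, TMM, filterByExpr, two-sided, Benjamini-Hochberg adjustment, threshold 0.05). The log2 CPM values behind the correlations between libraries use a prior count of 2, and the fold changes use the default of edgeR. The interaction with treatment used the same libraries, and that with cell type used the 12 basal and luminal libraries. Alternatives used DESeq2 1.42.0 and limma 3.58.1. The fit was tested on simulated data.

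Genes were named by a rule: up to 12 per direction with the smallest p, a mean log2 CPM above 2, an absolute log2 fold change of at least 1 and strains that do not overlap; genes at 0 in one strain with at least 20 counts in each library of the other; members of each list; up to 3 per direction in each interaction; and *Cdkn1b*, *Esr1* and *Pgr*. Members of lists, RT1 genes and DESeq2 calls named beyond that rule were chosen after their values were seen. The members and lists were chosen with earlier results of these data known. No source says whether libraries of a group came from separate sorts, so p-values measure only the spread between these libraries. No 2 libraries were alike within sampling noise. The titles give a basal and a luminal library the same animal number, which pairs them for the cell type interaction. The deviations of paired libraries from their group means correlated at 0.0793 (ACI Control) and 0.197 (ACI E2). Some genes are not reported here.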

Additional observations from a re-analysis of the deposited data

Results flagged for a closer look

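Of 56 values tested for a library far from the rest of its group, 4 stood out, and chance flags about 1 in 20. Among the 4 ACI basal libraries, *Dmtn* in ACI Control replicate 2, at 0.307 CPM, was far above the other 3, all near 0. *Cog4* in ACI Control replicate 2, at 51.7 CPM, was below the other 3, at 69.6 to 73.0 CPM. The summed level of the immediate early genes in ACI E2 replicate 1, the library without *Tp63*, was 50180 CPM, against 83270 to 86220 CPM in the other 3. The summed level of the lymphoid genes in ACI E2 replicate 2 was 3.08 CPM, against at most 0.395 CPM.

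*Cog4*, a subunit of a Golgi tethering complex, had opposite strain differences in the cell types. In basal cells it was at 51.7 to 73.0 CPM in ACI and 33.7 and 15.1 CPM in BN. In luminal cells it was at 11.5 to 87.2 CPM in ACI and 91.1 and 101 CPM in BN. The difference between the log2 fold changes was 2.29 ± 1.07 (edgeR, unadjusted p = 0.0598, adjusted p of 1), so it did not pass the test.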

How the results depend on the processing

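The count of genes with an adjusted p under 0.05 between the strains stayed at 0 under every edgeR and limma voom alternative, from 0 to 0 with each library left out in turn. DESeq2 called 8, and 386 at an unadjusted p under 0.05 with an absolute log2 fold change above 1 (132 higher in ACI, 254 in BN). For the interaction with treatment DESeq2 called 327 and the edgeR alternatives 0. For the interaction with cell type DESeq2 called 249 and the edgeR alternatives 0, including the replicate block on the title number (0 of 12405, with 234 genes at an unadjusted p under 0.05 against 269). Leaving out a BN library left the treatment interaction without a fit. The cause of the DESeq2 difference was not tested.

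At an unadjusted p under 0.05 the strain count ran from 49 (without ACI Control replicate 2) to 871 (without both doubted libraries, an alternative chosen after seeing the data), against 89. It was 53 without ACI Control replicate 1, 176 without ACI E2 replicate 1, 401 without BN Control, 236 by limma voom, 391 by DESeq2, 168 without the treatment term, 162 with all 12 libraries, and 251 and 250 in Control and E2 libraries alone. Scaling by library size alone, also chosen after seeing the data, moved the median log2 fold change of all genes from 0.02 to 0.17. The 24 genes named for the strain difference were chosen for groups that do not overlap, which fixes their sign when libraries are left out. *Pim1* ranged from -2.61 to -2.22 and *RT1-A1* from -3.08 to -1.91. *Dmtn* had an unadjusted p of 0.145 without BN Control in edgeR's model across all genes. No paired analysis was possible because the strains share no rats, except for the cell types above. With 2 BN libraries whose markers differ, differences smaller than their spread could not be seen at any depth.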
